A study of Mus musculus with 8 samples.

Results

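The 34 genes described here copy DNA or make its building blocks. They were chosen by gene symbol with earlier results of these data known, as were the lists of genes they are set beside. Each of the 34 is listed once among the 16432 genes of the deposited tables, and each passed the filter on low values in every comparison. Their RNA was measured in chondrocytes isolated from the breastbone of C57BL/6 mouse embryos at embryonic day 18.5. The Col2a1Cre;Idh1 fl/+ group (Cre-Idh1 cells in what follows, 3 libraries) carries a Cre recombinase driven by the collagen II gene Col2a1, which cartilage cells use heavily, and 1 floxed copy of Idh1, the cytosolic isocitrate dehydrogenase. The Cre control (3 libraries) carries Col2a1Cre and no floxed allele, and the floxed control (2 libraries) is Idh1 fl/+ without Cre. The series title says that mutant Idh1 is expressed, the sample labels do not name the mutation, and the design text writes fl/fl where the sample labels write fl/+. Cre made under Col2a1 acts in cells that use that gene, so cells in the preparation that have never used it would keep the floxed allele as it was. How many embryos went into a library is not stated, so every p-value rests on the spread among these libraries, which may be technical.

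A cell copies its DNA once per division. Before that phase the origin recognition complex, Cdc6 and Cdt1 load the ring-shaped MCM helicase onto DNA, and at the start of the phase Cdc45 and the GINS complex switch the helicase on. The primase and DNA polymerase alpha then lay down short primers, DNA polymerases delta and epsilon extend them on the sliding clamp PCNA, and a flap nuclease and DNA ligase join the pieces. Deoxynucleotides come from ribonucleotide reductase, which converts ribonucleotides, and from thymidylate synthase and thymidine kinase, which make thymidine nucleotides by synthesis and by salvage. In growth cartilage the columnar chondrocytes divide, while hypertrophic chondrocytes have left the cell cycle.

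The libraries held 31860422 to 44988540 reads on listed genes, and the 34 genes had 55 to 4305 reads each per library. The 8 chondrocyte markers were all listed, and Col2a1 took 15.9% to 21.3% of the reads. Idh1 stood at 3549, 3948 and 3465 normalized counts in Cre-Idh1 replicates 1, 2 and 3, at 3624, 3647 and 3991 in the Cre controls and at 2263 and 2452 in the floxed controls, the lowest of the 8. A normalized count is a read count divided by a library's size factor, and values are given in the order of the replicates throughout. By the genes that mark the sexes, 3 libraries were female, namely Cre control replicates 1 and 3 with Cre-Idh1 replicate 1, and 5 were male. Cre-Idh1 replicate 3 stood apart from the other libraries in the way its values varied with the span of a gene, which is described with DNA polymerase alpha.

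The Cre-Idh1 cells held less RNA than the Cre control for the makers of deoxynucleotides and for the catalytic subunit of the primase. The genes of the MCM helicase, the clamp and the polymerases did not pass the test against either control group. Pola1 and Gins2, of the polymerases and the helicase activators, still lay lower than both control groups without overlap. Both passed in the fit against the mean of both control groups, so the split is not a clean one. Of the calls of the 34 genes against the Cre control, only that of Rrm2 held whichever single library was left out. Tyms did not pass against the floxed control. Against the Cre control 5 of the 34 genes fell (Rrm1, Rrm2, Tyms, Tk1 and Prim1) and 0 rose at an adjusted p under 0.05, by limma's moderated test with Benjamini-Hochberg adjustment over all 14851 genes tested. Of all genes tested 19.2% were called, 9.39% lower and 9.80% higher. Of the 34 genes 29 had a negative log2 fold change, with a median of -0.16 against -0.01 for all genes tested. Between the groups 11 of the 34 lay lower and 2 higher without overlap, where 41.0% of all genes did not overlap, 20.9% lower and 20.1% higher. Apart from Orc6, no gene of the 34 was higher at an unadjusted p under 0.05, and edgeR, DESeq2 and the authors' deposited table also called 0 higher. Lower RNA in the whole preparation can come from fewer dividing cells or from less RNA per dividing cell, and these cannot be told apart here.

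Against the floxed control 4 of the 34 genes fell (Rrm1, Rrm2, Tk1 and Prim1) and 0 rose by limma, where 14.4% of the 15212 genes tested were called, 6.96% lower and 7.47% higher. The median log2 fold change of the 34 was -0.18, against 0.00 for all genes tested, and 26 were negative. Here 17 of the 34 lay lower and 2 higher without overlap, against 53.4% of all genes, 26.7% lower and 26.6% higher. No gene of the 34 was higher at an unadjusted p under 0.05, and edgeR, DESeq2 and the authors' deposited table called 0 higher. Both comparisons use the same Cre-Idh1 libraries, so the 4 genes that fell in each are not independent findings.

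**Figure D1:**
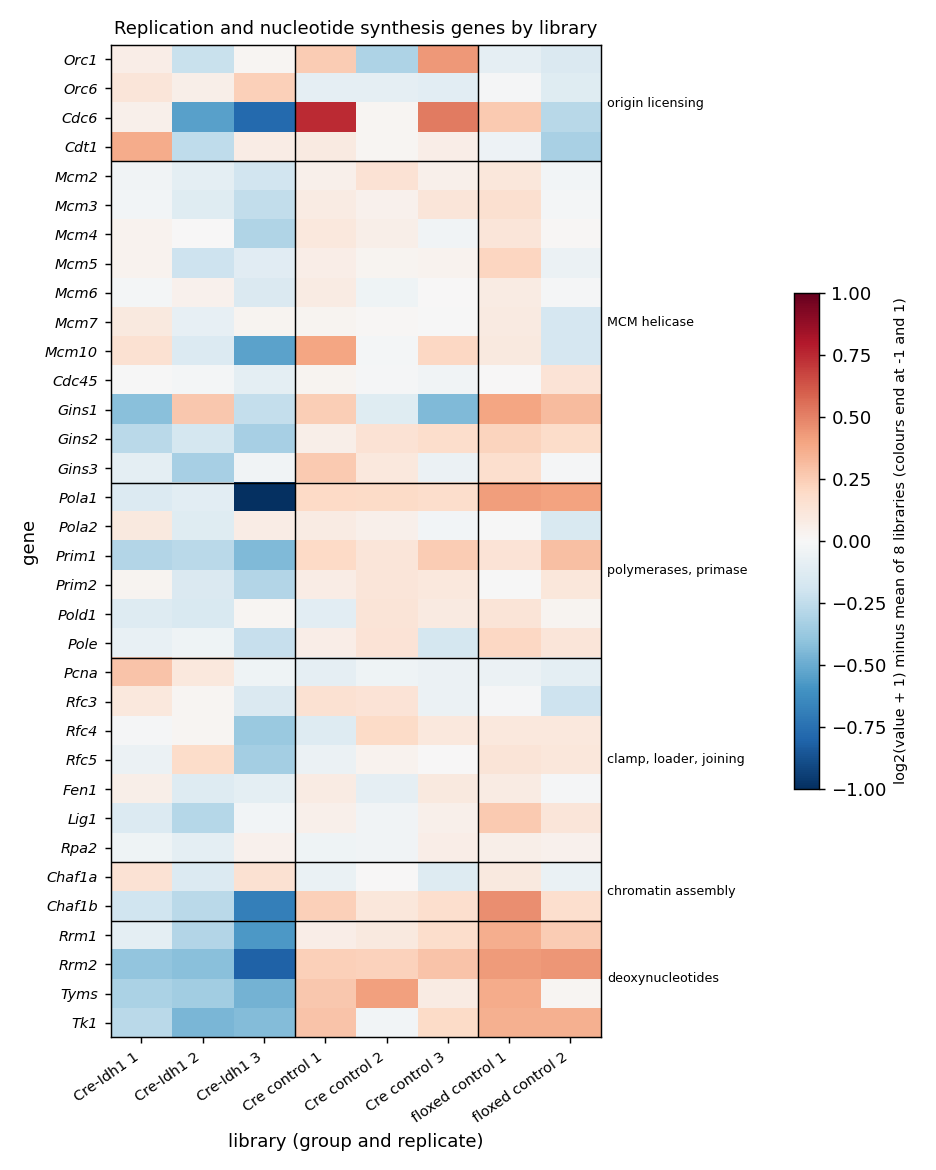
Each cell of the map gives a gene's log2(value + 1) in a library minus its mean over the 8 libraries, with genes in rows by role and libraries in columns by group; blue is below and red above that mean. The rows of Rrm1, Rrm2, Tyms, Tk1 and Prim1 are blue in the 3 Cre-Idh1 columns, and the column of Cre-Idh1 replicate 3 holds the lowest value of 18 of the 34 genes.

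The floxed control stood above the Cre control in some of the genes that were lower in Cre-Idh1 cells, though none passed the test. Between the floxed control and the Cre control limma called 0 of the 34, where it called 0.0134% of the 14870 genes tested, and 4 of the 34 had an unadjusted p under 0.05 (Pola1, Rrm1 and Rrm2 higher and Cdt1 lower in the floxed control). The edgeR and DESeq2 tests also called 0, as did the authors' deposited table, in which 0.219% of genes are called, 0.0183% higher and 0.201% lower. The median log2 difference was 0.03, and 8 of the 34 lay higher and 1 lower without overlap, against 24.8% of all genes, 14.1% higher and 10.7% lower. The 8 were Rrm1, Rrm2, Tk1, Pola1, Gins1, Gins2, Lig1 and Rfc5, and the lower gene was Cdt1. The floxed control stood above the Cre control by 0.18 for Rrm2 (95% interval 0.02 to 0.34) and by 0.20 for Rrm1 (0.04 to 0.35).

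Ribonucleotide reductase is made of a large subunit from Rrm1, which holds the active site, and a small subunit from Rrm2, whose protein is made in the phase of DNA copying. Rrm2 stood at 564, 555 and 423 normalized counts in the Cre-Idh1 libraries, at 879, 874 and 907 in the Cre controls and at 998 and 1009.7 in the floxed controls. All 3 Cre-Idh1 libraries lay below all 5 controls. Against the Cre control Rrm2 fell by 42.4% (-0.80 ± 0.13 as log2 fold change with SE; adjusted p = 0.00415 in limma), and this call held when any single library was left out (adjusted p at most 0.0289). It fell by 49.2% against the floxed control (-0.98 ± 0.16; adjusted p = 0.00963), a call lost without floxed control replicate 1 (0.0753) or replicate 2 (0.117).

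Rrm1 stood at 1896, 1664 and 1368 normalized counts in the Cre-Idh1 libraries, at 2129.9, 2179 and 2299.5 in the Cre controls and at 2615 and 2429.6 in the floxed controls. The Cre-Idh1 libraries lay below the controls without overlap but were spread more widely than either control group. The log2 fold change was -0.44 ± 0.12 against the Cre control (limma adjusted p = 0.0371) and -0.63 ± 0.15 against the floxed control (0.0315). The first no longer passed when Cre-Idh1 replicate 2 (0.0705) or any Cre control (0.0897, 0.106 and 0.143 for replicates 1, 2 and 3) was left out, when embryo sex was a covariate (0.0874) or when reads were scaled by library total only (0.0508). The second was lost without Cre-Idh1 replicate 2 (0.0729), floxed control replicate 1 (0.206) or floxed control replicate 2 (0.200), and with reads scaled by library total only (0.0629).

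Tyms encodes thymidylate synthase, which makes thymidylate from deoxyuridylate. Its values were 223, 218 and 199.7 normalized counts in the Cre-Idh1 libraries, 334, 369 and 294 in the Cre controls and 359 and 281 in the floxed controls, again without overlap. Tyms fell by 35.4% from the Cre control (-0.63 ± 0.14 on the log2 scale; adjusted p = 0.0154 in limma), a call lost without Cre control replicate 1 (0.0574) or replicate 2 (0.0767). Against the floxed control the log2 fold change of -0.57 ± 0.17 did not pass (adjusted p = 0.0675; 95% interval -0.98 to -0.17).

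Tk1 encodes the cytosolic thymidine kinase of the salvage route. It stood at 164, 144 and 147 normalized counts in the Cre-Idh1 libraries, at 242, 195 and 227 in the Cre controls and at 255 and 254 in the floxed controls. Every control library lay above every Cre-Idh1 library, with Cre control replicate 2 the nearest. The fall was 31.1% against the Cre control (-0.54 ± 0.15 on the log2 scale; adjusted p = 0.0395 in limma) and 40.3% against the floxed control (-0.75 ± 0.17; 0.0281). Against the Cre control the call of Tk1 was lost when any library other than Cre-Idh1 replicate 3 was left out (0.0519 to 0.145) and with sex in the model (0.0993). Against the floxed control it was lost without Cre-Idh1 replicate 2 (0.0757), floxed control replicate 1 (0.174) or floxed control replicate 2 (0.223).

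**Figure D2:**
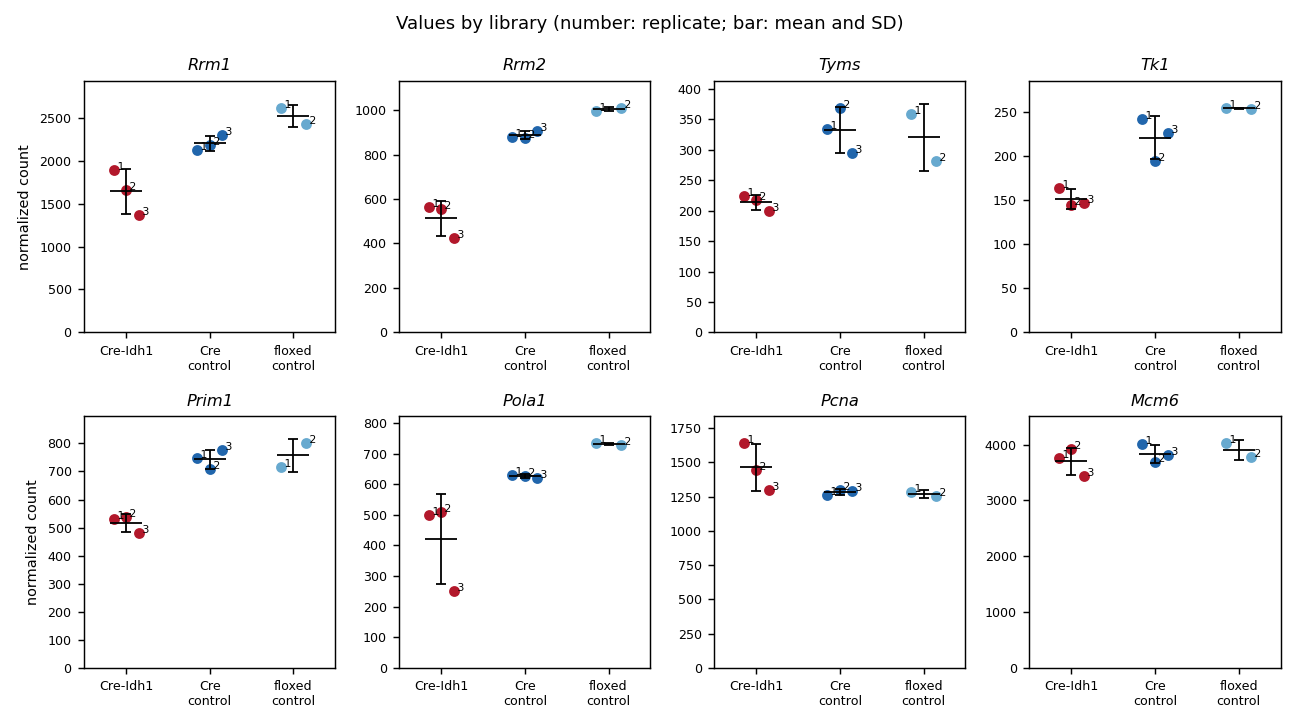
Normalized counts of 8 of the genes, 1 point per library with its replicate number, and the mean with its SD for each group, on axes that start at 0. The points of Rrm1, Rrm2, Tyms, Tk1, Prim1 and Pola1 lie lower in Cre-Idh1 cells than in either control without overlap, those of Pcna lie at or above the controls, and those of Mcm6 overlap.

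The primase is a pair of subunits, of which Prim1 encodes the catalytic one and Prim2 the regulatory one. Prim1 stood at 530.4, 539 and 479 normalized counts in the Cre-Idh1 libraries, at 747, 709 and 775 in the Cre controls and at 717 and 800.2 in the floxed controls. The highest Cre-Idh1 library lay well below the lowest control. Prim1 fell by 30.6% from the Cre control (-0.53 ± 0.10 on the log2 scale; adjusted p = 0.00963 in limma), a call lost only without Cre control replicate 3 (0.0618) among the alternatives run. It fell by 31.9% against the floxed control (-0.55 ± 0.13; 0.0309). This second call was lost without Cre-Idh1 replicate 1 (0.0674), Cre-Idh1 replicate 2 (0.0660), floxed control replicate 1 (0.137) or floxed control replicate 2 (0.301), with sex in the model (0.0696) and with scaling by library total only (0.0527). Prim2 did not pass in either comparison: its log2 fold change was -0.24 ± 0.13 against the Cre control (adjusted p = 0.243) and -0.19 ± 0.17 against the floxed control (0.462).

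Pola1, the catalytic subunit of DNA polymerase alpha, stood at 500.4, 509.9 and 249.6 normalized counts in the Cre-Idh1 libraries, at 632, 627 and 619.9 in the Cre controls and at 733 and 728 in the floxed controls. The groups did not overlap, and Cre-Idh1 replicate 3 lay far below the other Cre-Idh1 libraries. With all libraries Pola1 did not pass: the log2 fold change was -0.65 ± 0.25 against the Cre control (limma adjusted p = 0.101) and -0.87 ± 0.30 against the floxed control (0.0974). Without Cre-Idh1 replicate 3 it was smaller and passed in both, at -0.31 ± 0.08 (0.0295) and -0.53 (0.0115). Pola2, the accessory subunit, was at -0.02 ± 0.11 against the Cre control (95% interval -0.27 to 0.23).

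Pola1 is the longest of the 34 genes on the chromosome, with a span of 327 kb in GENCODE M21, and Prim2 follows with 216 kb. In Cre-Idh1 replicate 3 the deviation of a gene from its mean over the libraries fell with the span of the gene, with Spearman's rho of -0.265 across 13326 genes of that library, where the other 7 libraries had values from -0.04 to 0.20; these genes share 1 library and are not independent replicates. The median deviation in that library was 0.14 on the log2 scale for genes under 10 kb and -0.15 for genes of 100 to 300 kb. Pola1 stood 1.01 log2 units lower there than in the mean of the other Cre-Idh1 libraries, and Prim2 0.23 lower. The part of this in the members' values was not tested. Leaving the library out gave 6 of the 34 lower and 1 higher against the Cre control, and 6 lower and 0 higher against the floxed control. Rrm2, Rrm1, Tk1 and Prim1 were among the 6 in each, at -0.66, -0.31, -0.51 and -0.47 against the Cre control, together with Pola1. Tyms joined them against the Cre control (-0.58, adjusted p = 0.0164) and Lig1 against the floxed control.

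**Figure D3:**
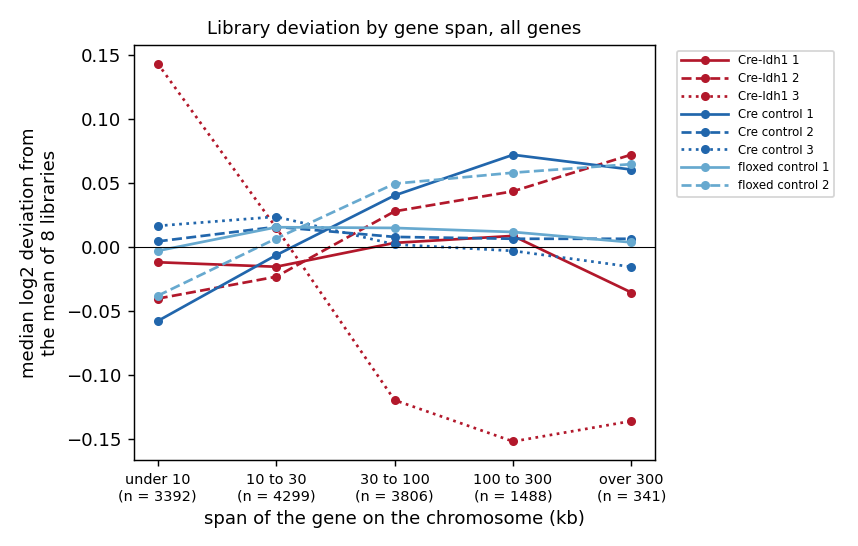
The median log2 deviation of each library from the mean of the 8 libraries is plotted for genes grouped by their span in kb, with 1 line per library and the number of genes under each group. The line of Cre-Idh1 replicate 3 goes from 0.14 for genes under 10 kb to -0.15 for those of 100 to 300 kb, while the other 7 stay between -0.06 and 0.07.

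Of the chain-extending polymerases, Pold1, the catalytic subunit of polymerase delta, was at -0.12 ± 0.10 against the Cre control and -0.16 ± 0.12 against the floxed control. Pole, that of polymerase epsilon, was at -0.12 ± 0.12 and -0.28 ± 0.13. Neither passed in limma, with adjusted p values from 0.189 to 0.511.

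The helicase ring itself stood close to the controls. Mcm6 was at 3754, 3919 and 3435 normalized counts in the Cre-Idh1 libraries, at 4011, 3683 and 3818 in the Cre controls and at 4024 and 3773 in the floxed controls. The groups overlapped, and the log2 fold change was -0.05 ± 0.09 against the Cre control (95% interval -0.25 to 0.14) and -0.08 ± 0.10 against the floxed control (-0.32 to 0.17). Mcm7 was at 0.00 ± 0.09 against the Cre control (-0.20 to 0.20). Among the 6 ring subunits, Mcm2 to Mcm7, log2 fold changes against the Cre control ran from -0.21 (Mcm3, 95% interval -0.41 to -0.01) to 0.00, and none passed. Mcm2 and Mcm3 lay lower without overlap in both comparisons, by -0.19 and -0.21 against the Cre control (limma adjusted p = 0.148 and 0.135). The 95% interval reached down to -0.41 for Mcm3, so these p values do not show that the ring was unaltered.

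Gins2 is a subunit of GINS, which helps to start the helicase. It stood at 211, 226 and 203 normalized counts in the Cre-Idh1 libraries, at 265, 283 and 288 in the Cre controls and at 298 and 289 in the floxed controls. The groups did not overlap, but the log2 fold change of -0.39 ± 0.13 against the Cre control (limma adjusted p = 0.0669) and of -0.46 ± 0.15 against the floxed control (0.0873) did not pass. Gins2 shares 2758 of its 4097 exon bases with Gse1 on the opposite strand, and no source used here says if strand was used in counting. Cdc45 was at -0.03 ± 0.12, Gins1 at -0.02 ± 0.27 and Gins3 at -0.26 ± 0.17 against the Cre control. In the comparison with the floxed control these stood at -0.11 ± 0.15, -0.48 ± 0.27 and -0.23 ± 0.20, each lower without overlap and none past the test, with Gins1 at 57.9, 94.1 and 65.9 normalized counts in the Cre-Idh1 libraries, 92.4, 71.3 and 56.9 in the Cre controls and 103 and 97.3 in the floxed controls. Mcm10, which helps to start the helicase, was at -0.37 ± 0.20 against the Cre control (0.216) and -0.14 ± 0.23 against the floxed control (0.711).

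The licensing genes went different ways. Orc6, the smallest subunit of the origin recognition complex, stood at 811, 778 and 879.5 normalized counts in the Cre-Idh1 libraries, at 702, 702 and 695 in the Cre controls and at 740.1 and 688 in the floxed controls. The Cre-Idh1 libraries lay above both control groups, but the log2 fold change of 0.23 ± 0.10 against the Cre control did not pass (limma adjusted p = 0.126), nor did 0.20 ± 0.12 against the floxed control (0.289). Cdc6, the loader of the helicase, stood at 129, 85.3 and 72.2 normalized counts in the Cre-Idh1 libraries, at 210.1, 126 and 179 in the Cre controls and at 149 and 103 in the floxed controls. These groups overlapped. Its log2 fold change of -0.85 ± 0.27 against the Cre control was the largest of the 34 and missed the threshold (0.0553), though DESeq2 called it, and its adjusted p is 0.0185 in the authors' deposited table. Against the floxed control it was -0.41 ± 0.31 (0.395). Cdt1, the partner of Cdc6, was at 0.01 ± 0.15 against the Cre control and at 0.25 ± 0.20 against the floxed control, and Orc1 at -0.17 ± 0.23 and 0.07 ± 0.22.

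**Figure D4:**
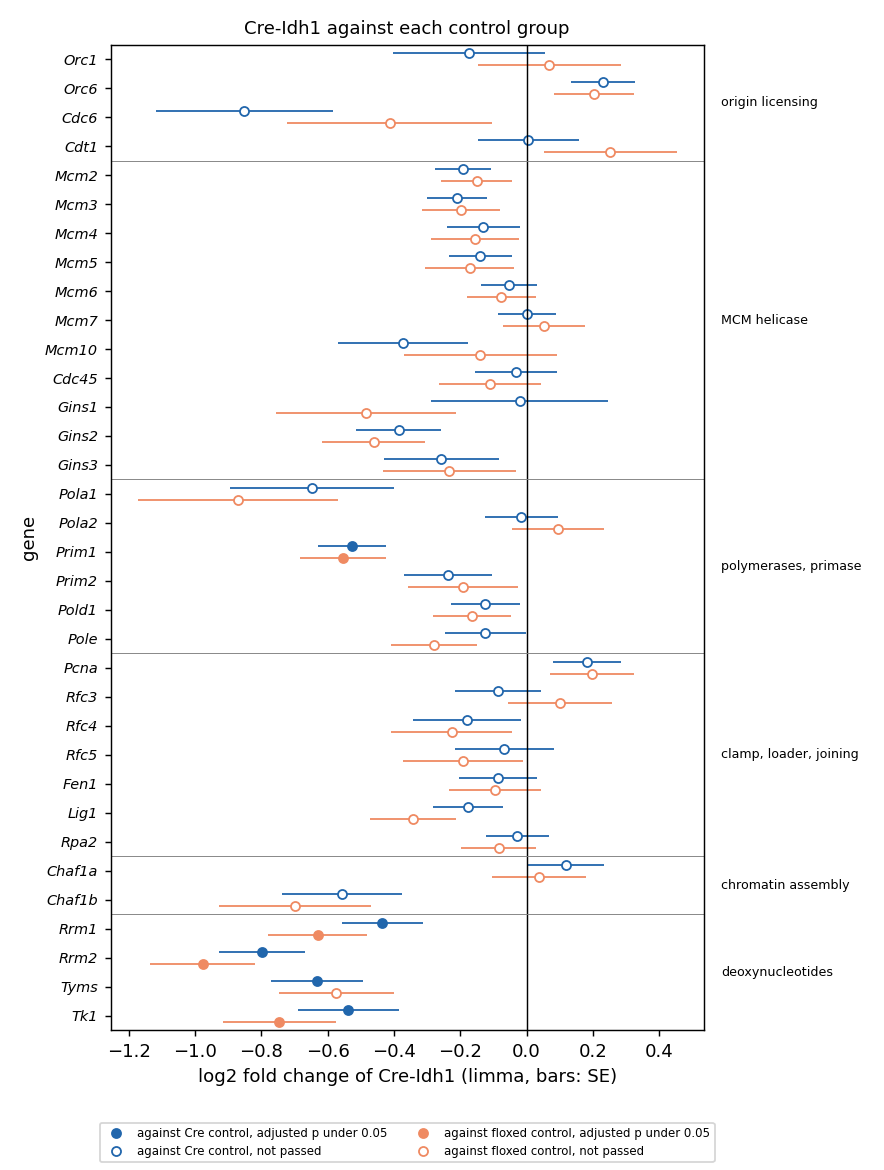
Log2 fold changes of Cre-Idh1 cells against the Cre control (blue) and against the floxed control (orange), with the SE as bars and genes in rows by role; filled points have a limma adjusted p under 0.05. The filled points are Rrm1, Rrm2, Tyms, Tk1 and Prim1 in blue and the same genes without Tyms in orange, and the points of Mcm2 to Mcm7 lie between -0.21 and 0.05.

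Pcna, the sliding clamp, did not follow the deoxynucleotide genes. It stood at 1639.7, 1448 and 1302 normalized counts in the Cre-Idh1 libraries, at 1259.7, 1302 and 1293 in the Cre controls and at 1288 and 1252 in the floxed controls. Cre-Idh1 replicates 1 and 2 lay above every control, and replicate 3 was within 1 normalized count of Cre control replicate 2. The log2 fold change was 0.18 ± 0.10 against the Cre control (limma adjusted p = 0.249; 95% interval -0.05 to 0.42) and 0.20 ± 0.13 against the floxed control (0.322). Without Cre-Idh1 replicate 3 Pcna passed against the Cre control, at 0.26 ± 0.08 (0.0403).

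The other genes of the clamp and of strand joining did not pass in either comparison. Fen1, the flap nuclease, was at -0.09 ± 0.12, and Rpa2, a subunit of the single-strand binding protein, at -0.03 ± 0.09 against the Cre control. The clamp loader genes Rfc3, Rfc4 and Rfc5 were at -0.09 ± 0.13, -0.18 ± 0.16 and -0.07 ± 0.15, and against the floxed control at 0.10 ± 0.16, -0.23 ± 0.18 and -0.19 ± 0.18, where Rfc4 lay lower without overlap. Lig1, the replicative ligase, stood at 701, 632 and 757 normalized counts in the Cre-Idh1 libraries, at 802, 755 and 802 in the Cre controls and at 925 and 841 in the floxed controls. Its groups did not overlap against the floxed control, where the log2 fold change of -0.34 ± 0.13 did not pass (limma adjusted p = 0.122), and they overlapped against the Cre control (-0.18 ± 0.11; 0.269).

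The subunits of chromatin assembly factor 1, which places histones on new DNA, differed in sign. Chaf1b stood at 126, 121 and 90.3 normalized counts in the Cre-Idh1 libraries, at 172, 157 and 164 in the Cre controls and at 201 and 163 in the floxed controls. It lay lower without overlap, and the log2 fold change of -0.56 ± 0.18 (limma adjusted p = 0.0614) and of -0.70 ± 0.23 (0.0823) did not pass. Chaf1a, its large partner, was at 0.12 ± 0.12 against the Cre control and at 0.04 ± 0.14 against the floxed control. Chaf1a shares 4648 of its 8854 exon bases with Ubxn6 on the opposite strand.

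When Cre-Idh1 cells were set against the mean of both control groups, in 1 limma fit of all 8 libraries, 9 of the 34 fell and 0 rose, where 31.2% of the 15505 genes tested were called, 16.0% lower and 15.3% higher. These were the 5 named above with Gins2 (-0.42 ± 0.10; adjusted p = 0.0131), Chaf1b (-0.63 ± 0.16; 0.0137), Pola1 (-0.76 ± 0.21; 0.0211) and Lig1 (-0.26 ± 0.09; 0.0488). Leaving out 1 library at a time gave 6 to 9. Gins2 and the 5 kept an adjusted p under 0.05 in each such fit, while Chaf1b reached 0.0547, Pola1 0.0567 and Lig1 0.157. The authors' deposited table also calls 9 of the 34 lower and 0 higher in each comparison, where it calls 23.1% of its genes against the Cre control, 11.4% lower, and 24.9% against the floxed control, 12.6% lower. In that table Gins2, Chaf1b and Pola1 join the 5 in both, Cdc6 against the Cre control and Lig1 against the floxed control.

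Per length of exon, Mcm6, Pcna, Mcm4 and Mcm3 led in each group. Levels are in RPKM, reads per kilobase of exon scaled to the size of the library. Mcm6 had 22.7, 21.4 and 18.9 RPKM in the Cre-Idh1 libraries, 24.5, 21.1 and 21.9 in the Cre controls and 23.3 and 20.5 in the floxed controls. Pcna had 16.2 ± 2.76 RPKM in Cre-Idh1 cells (SD, n = 3), 14.6 ± 0.300 in the Cre control (n = 3) and 13.8 ± 0.882 in the floxed control (n = 2). At the low end were Cdc6 with 0.490 ± 0.183, 0.903 ± 0.250 and 0.634 ± 0.193, and Chaf1b with 0.638 ± 0.133, 0.960 ± 0.0764 and 1.02 ± 0.195. Within ribonucleotide reductase Rrm2 had 4.93 ± 0.928 and Rrm1 3.97 ± 0.839 in Cre-Idh1 cells, against 8.75 ± 0.306 and 5.47 ± 0.152 in the Cre control. Exon lengths are merged over all annotated transcripts and can exceed the main transcript, which lowers such a level.

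**Figure D5:**
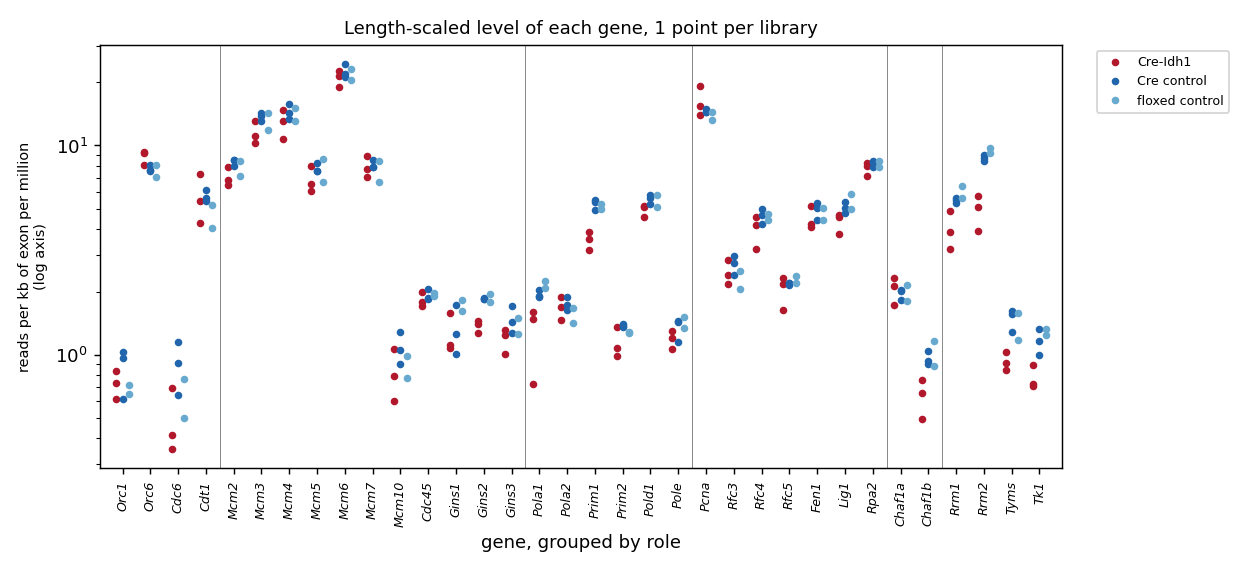
RPKM on a log axis for the 34 genes, 1 point per library coloured by group, with genes in order of role. Mcm6 lies highest and Cdc6 and Orc1 lie among the lowest 3 by mean in each group, from 18.9 to 24.5 RPKM for Mcm6 down to a mean of 0.490 for Cdc6 in Cre-Idh1 cells.

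Set beside each other within a library, the deoxynucleotide genes and the helicase ring gave a difference from which the scale of the library largely cancels. It is the mean log2(value + 1) of Rrm1, Rrm2, Tyms and Tk1 minus that of Mcm2 to Mcm7, given as its distance from the mean of the 8 libraries. It was -0.28, -0.30 and -0.41 in the Cre-Idh1 libraries, 0.15, 0.14 and 0.15 in the Cre controls and 0.25 and 0.31 in the floxed controls. The Cre-Idh1 libraries lay below all 5 controls. This contrast was chosen after the values had been seen, so it is a description without a test. A difference of this kind shows that the deoxynucleotide genes stood lower relative to the ring genes in these libraries, not that the helicase genes were constant.

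The promoters of 8 of the genes are shown, chosen after the calls were known. They are the deoxynucleotide genes and Prim1, which fell against the Cre control, and Mcm5, Mcm6 and Pcna, which did not pass the test. The E2F factors and the CCAAT-binding factor NF-Y are known regulators of genes of the cell cycle. Whether their motifs have a part in the values of these genes was not tested. A window of 250 bases before to 50 bases after the annotated start was searched in 29 of the 34 genes that the RefSeq table holds (GRCm38.p6). The letters searched were TTTCCCGC, TTTCGCGC, TTTGCCGC and TTTGGCGC as forms of the E2F motif and CCAAT, each on both strands. The 250 bases before the start are printed 5′ to 3′ on the strand of the gene, and capitals mark these letters, on either strand.
Rrm2 (chr12:24708004-24708253, forward strand): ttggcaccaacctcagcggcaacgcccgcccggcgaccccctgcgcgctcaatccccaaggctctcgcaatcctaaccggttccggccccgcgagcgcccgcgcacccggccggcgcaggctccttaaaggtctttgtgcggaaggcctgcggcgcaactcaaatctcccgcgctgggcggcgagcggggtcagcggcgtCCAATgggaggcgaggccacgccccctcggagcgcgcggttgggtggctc
Rrm1 (chr7:102441445-102441694, forward strand): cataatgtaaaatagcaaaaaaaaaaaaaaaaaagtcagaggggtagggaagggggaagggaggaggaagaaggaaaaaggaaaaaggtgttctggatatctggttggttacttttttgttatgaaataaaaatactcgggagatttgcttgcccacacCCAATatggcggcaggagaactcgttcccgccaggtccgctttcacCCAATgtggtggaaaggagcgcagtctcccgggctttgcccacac
Tyms (chr5:30073626-30073875, reverse strand): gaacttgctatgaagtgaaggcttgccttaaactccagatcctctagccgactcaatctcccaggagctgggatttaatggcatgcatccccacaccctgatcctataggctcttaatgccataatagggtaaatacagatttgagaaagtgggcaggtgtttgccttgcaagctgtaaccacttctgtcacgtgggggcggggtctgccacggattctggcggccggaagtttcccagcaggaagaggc
Tk1 (chr11:117826015-117826264, reverse strand): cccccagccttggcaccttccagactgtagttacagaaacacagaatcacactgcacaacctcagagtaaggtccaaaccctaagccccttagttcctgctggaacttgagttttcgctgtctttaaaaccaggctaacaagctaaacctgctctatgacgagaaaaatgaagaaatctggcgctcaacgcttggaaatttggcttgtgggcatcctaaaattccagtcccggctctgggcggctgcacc
Prim1 (chr10:128014965-128015214, forward strand): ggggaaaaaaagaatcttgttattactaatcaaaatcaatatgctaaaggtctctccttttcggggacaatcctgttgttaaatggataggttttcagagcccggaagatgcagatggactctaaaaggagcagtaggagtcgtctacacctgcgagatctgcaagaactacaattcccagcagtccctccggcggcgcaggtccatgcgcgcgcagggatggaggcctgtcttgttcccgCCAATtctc
Mcm5 (chr8:75109259-75109508, forward strand): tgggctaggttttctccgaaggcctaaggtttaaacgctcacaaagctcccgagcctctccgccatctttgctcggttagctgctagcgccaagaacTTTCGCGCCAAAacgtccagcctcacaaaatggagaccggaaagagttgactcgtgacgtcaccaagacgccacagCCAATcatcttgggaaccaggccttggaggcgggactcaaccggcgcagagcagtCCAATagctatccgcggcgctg
Mcm6 (chr1:128359706-128359955, reverse strand): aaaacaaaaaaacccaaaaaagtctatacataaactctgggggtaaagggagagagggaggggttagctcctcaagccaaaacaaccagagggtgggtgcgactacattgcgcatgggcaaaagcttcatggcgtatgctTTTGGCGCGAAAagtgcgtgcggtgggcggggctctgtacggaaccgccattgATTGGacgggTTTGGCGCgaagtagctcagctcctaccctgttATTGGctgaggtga
Pcna (chr2:132253181-132253430, reverse strand): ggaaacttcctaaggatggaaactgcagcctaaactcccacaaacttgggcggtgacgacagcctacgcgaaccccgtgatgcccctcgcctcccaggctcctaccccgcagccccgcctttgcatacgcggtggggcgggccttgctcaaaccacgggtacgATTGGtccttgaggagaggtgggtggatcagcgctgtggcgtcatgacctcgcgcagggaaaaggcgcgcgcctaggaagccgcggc
An E2F form was in 12 of the 29 windows (41.4%) and in 2.61% of the 27025 genes of the table. It was in 0 of the 5 genes that fell against the Cre control and in 12 of the other 24 (Cdc6, Cdt1, Gins3, Lig1, Mcm3, Mcm5, Mcm6, Mcm7, Orc1, Pola1, Pold1 and Rfc3). This split depends on the fit that makes the calls. Of the 12, Pola1 and Lig1 fell in the fit against the mean of both control groups. The authors' deposited table calls Pola1 and Cdc6 lower against the Cre control. In Mcm5 and in Mcm6 a form on each strand overlap, which gives the run of 12 capitals. CCAAT was in 18 of the 29 windows (62.1%), against 41.1% of all genes, in 3 of the 5 (Prim1, Rrm1 and Rrm2) and in 15 of the other 24. A match describes letters only, and no match says only that these letters are not in this window.

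Of 30 other genes of nucleotide synthesis 5 fell against the Cre control and 3 against the floxed control by limma, and 0 rose in either. Of all genes tested 9.39% and 6.96% were called lower. In either direction 12 and 6 of the 30 had an unadjusted p under 0.05, against 5074 of 14851 and 4831 of 15212 of all genes, and edgeR and DESeq2 also called 0 higher. Against the Cre control 8 of the 30 were positive and 22 negative. Of the 12, Nme2 (0.69 ± 0.26), Tk2 (0.47 ± 0.18), Nme1 (0.31 ± 0.13) and Atic (0.21 ± 0.08) were higher. Against the mean of both control groups 7 fell and 1 rose, where 16.0% of all genes fell and 15.3% rose. Ctps2, a CTP synthase, stood at 620.3, 675 and 637 normalized counts in the Cre-Idh1 libraries, at 1006, 1117 and 1043 in the Cre controls and at 1093 and 1209.5 in the floxed controls, without overlap. Its log2 fold change was -0.71 ± 0.10 (adjusted p = 0.00181) and -0.84 ± 0.12 (0.00617). Dctd, the deaminase that feeds thymidylate synthase, was at -0.62 ± 0.11 (0.00651) and -0.70 ± 0.12 (0.0111). Gart, of purine synthesis, was at -0.34 ± 0.10 (0.0443) and -0.46 ± 0.11 (0.0314), and Umps, which makes UMP, at -0.32 ± 0.09 against the Cre control (0.0374). Ctps2 and Dctd held against the Cre control when any single library was left out (adjusted p at most 0.0159 and 0.0437). The count of 5 became 2, 3, 2 and 2 without Cre-Idh1 replicate 1 or Cre control replicate 1, 2 or 3, 2 with embryo sex as a covariate, and 8 without Cre-Idh1 replicate 3. The count of 3 became 1 or 0 without floxed control replicate 1 or 2, and 6 without Cre-Idh1 replicate 3.

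Rrm2b encodes the other small subunit of ribonucleotide reductase, which is not tied to the phase of DNA copying and is known as a target of p53. It stood at 365, 443 and 173 normalized counts in the Cre-Idh1 libraries, at 309, 298 and 310.5 in the Cre controls and at 327 and 412 in the floxed controls. Cre-Idh1 replicate 3 was the lowest and replicate 2 the highest of the 8 libraries. The log2 fold change was -0.01 ± 0.30 against the Cre control (limma adjusted p = 0.985) and -0.27 ± 0.37 against the floxed control (0.653), a difference smaller than its SE in both.

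Among 46 other replication factors 7 fell and 3 rose against the Cre control, and 4 fell and 2 rose against the floxed control. Of all genes tested 9.39% fell and 9.80% rose in the first comparison and 6.96% and 7.47% in the second. Pole2, a subunit of polymerase epsilon, stood at 435, 489 and 441 normalized counts in the Cre-Idh1 libraries, at 839, 748 and 735 in the Cre controls and at 772 and 802 in the floxed controls, without overlap. Its log2 fold change was -0.76 ± 0.11 (limma adjusted p = 0.00231) and -0.79 ± 0.13 (0.00921). Clspn, the claspin of the fork checkpoint, was at -0.65 ± 0.15 (0.0200) and -0.63 ± 0.17 (0.0447), Atad5, an unloader of PCNA, at -0.61 ± 0.15 against the Cre control (0.0247), and against the floxed control Chtf18, of an alternative clamp loader, at -0.79 ± 0.16 (0.0211) and Mtbp, a partner in origin firing, at -0.48 ± 0.12 (0.0348). Recql4, a helicase of the same list, rose by 0.72 ± 0.14 against the Cre control (0.00902). Rpa1, the large single-strand binding subunit, rose by 0.34 ± 0.08 and 0.38 ± 0.09, and Pole4 by 0.38 ± 0.10 and 0.48 ± 0.11; these were named after their values had been seen. Pole2 held in each fit against the Cre control with 1 library left out (at most 0.0154). The counts of 7 and 3 became 2 and 1 when Cre control replicate 1 or 2 was left out, 1 and 0 when replicate 3 was, and the 7 became 2 with sex in the model and 11 without Cre-Idh1 replicate 3. The counts of 4 and 2 became 1 and 0 without Cre-Idh1 replicate 1 or 2 and 0 and 0 without either floxed control, and the 4 became 9 without Cre-Idh1 replicate 3.

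Of 21 genes of E2F factors and S-phase control 5 fell against the Cre control and 3 against the floxed control by limma, and 0 rose by limma, edgeR or DESeq2 (7 and 7 had an unadjusted p under 0.05, in either direction, against 5074 of 14851 and 4831 of 15212 of all genes). All genes gave 9.39% and 6.96% called lower. E2f7 and E2f8, which repress cell cycle genes, were at -1.0 ± 0.26 (adjusted p = 0.0301) and -0.58 ± 0.14 (0.0189) against the Cre control, and at -1.14 ± 0.30 (0.0458) and -0.74 ± 0.17 (0.0268) against the floxed control. Ccna2, the cyclin A of DNA copying and mitosis, was at -0.60 ± 0.14 (0.0181) and -0.89 ± 0.16 (0.0128), and its kinase partner Cdk2 at -0.34 ± 0.09 against the Cre control (0.0358). E2f1, the activating factor, stood at 545, 597 and 785 normalized counts in the Cre-Idh1 libraries, at 612, 627 and 556 in the Cre controls and at 662 and 623 in the floxed controls. These overlapped (0.09 ± 0.15, adjusted p = 0.711, and -0.02 ± 0.17, 0.957). The count of 5 became 1, 1 and 0 when Cre control replicates 1, 2 and 3 were left out, 3 when Cre-Idh1 replicate 2 was, and 1 with sex in the model. The count of 3 became 0 without either floxed control and 7 without Cre-Idh1 replicate 3.

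Genes of mitosis were lower as well. All 24 listed had a negative log2 fold change in both comparisons, with a median of -0.39 against the Cre control and -0.60 against the floxed control, and limma called 8 and 12 of them lower and 0 higher, where all genes gave 9.39% and 6.96% lower. Mki67, the gene of the proliferation antigen Ki-67, stood at 4369, 4207 and 3289.7 normalized counts in the Cre-Idh1 libraries, at 6251, 4682 and 4918 in the Cre controls and at 5468 and 6508 in the floxed controls. Its groups did not overlap, and its log2 fold change was -0.42 ± 0.14 against the Cre control, which did not pass (adjusted p = 0.0712), and -0.60 ± 0.15 against the floxed control (0.0376). Ndc80, of the kinetochore, was at -0.91 ± 0.14 (0.0038) and -0.79 ± 0.19 (0.0314), and Cenpf, another kinetochore gene, at -0.65 ± 0.19 (0.0455) and -0.88 ± 0.22 (0.0384). Kif20a and Bub1b, of cytokinesis and the spindle checkpoint, fell by 0.54 and 0.52 against the Cre control, and Top2a and Aurkb, a topoisomerase and a mitotic kinase, fell by 0.72 and 0.72 against the floxed control. The count of 8 became 4, 3 and 2 without Cre control replicates 1, 2 and 3 and 5 with embryo sex as a covariate. The count of 12 became 5 without Cre-Idh1 replicate 2, 0 without either floxed control and 21 without Cre-Idh1 replicate 3. Between the controls limma called 0 genes in these 4 lists (0, 1, 2 and 12 of the replication, nucleotide, E2F and mitotic genes had an unadjusted p under 0.05), where 1133 of all 14870 genes did. In that comparison 16 of the 24 mitotic genes lay higher in the floxed control without overlap, against 14.1% of all genes.

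Markers of other cell types also differed between the groups. The summed values of the 11 macrophage markers were 2446 to 4595 normalized counts in Cre-Idh1 cells, 1561 to 2461 in the Cre control and 1536 to 1735 in the floxed control. The 9 endothelial markers summed to 430.4 to 1020.4, 312 to 359 and 337 to 452. Of the 7 keratinocyte markers Krt5, Krt14, Krt15 and Trp63 were not among the listed genes. The other 3 (Dsp, Sfn and Krt10) summed to 741 to 994, 401 to 459 and 328 to 472. The sums of 6 of the 8 skeletal muscle markers were 473 to 614, 1559 to 1646 and 1954 to 2133. The sums of the muscle and keratinocyte markers did not overlap between Cre-Idh1 cells and the controls, while those of the macrophage and endothelial markers met the controls at their lower end. Sums of the 10 of 11 lymphoid and haematopoietic progenitor markers (blood list in what follows) overlapped (661 to 2474, 1236 to 1738 and 1195 to 1462). Those of the 5 erythroid markers that were listed (893 to 4372, 1029.8 to 5112 and 2189.97 to 3473) and of the 9 perichondrial and fibroblast markers (104540 to 156680, 91098 to 149446 and 131132 to 160539) overlapped too. No marker used was at 0 in a whole group. Against the Cre control limma called C1qa, C1qb, C1qc and Cd68 of the macrophage list, Dsp and Sfn of the keratinocyte list, Tie1 of endothelium and Acta1 of muscle higher. It called Tnnt3 of muscle, Pdgfra and Prrx1 of the perichondrial list and Mpo, Igll1 and Rag1 of the blood list lower. In that comparison 4 of the 9 perichondrial and 2 of the 10 blood markers had a positive log2 fold change, and the rest a negative one. Against the floxed control limma called 0 of the 10 blood markers, with 7 positive and 3 negative. It called 2 of the 9 perichondrial markers lower, with 4 positive and 5 negative. Of the 11 macrophage markers it called 5 higher there, and of the 3 keratinocyte markers 2 higher. Of the 6 muscle markers it called 1 lower and of the 9 endothelial markers 0. Of all genes tested 9.80% rose and 9.39% fell against the Cre control, and 7.47% and 6.96% against the floxed control. Tnnt3, at -2.73 ± 0.14, leads the lower sum of the muscle markers, while Acta1 stood at 1.96 ± 0.20. Among the chondrocyte markers Matn1 fell by 0.39 ± 0.10 on the log2 scale against the Cre control (limma adjusted p = 0.0328; up to 0.122 with 1 library left out). The chondrocyte markers, of which Col2a1 is the largest part, summed to 7479920 to 9848090, 7116240 to 8994190 and 8571610 to 9688790. The part of these other cells in the lower values of the replication genes was not tested.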

How the data were processed

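Messenger RNA was sequenced from 8 libraries, prepared with a stranded kit per the labels' protocols. The tools were DESeq2, HTSeq, STAR, cutadapt and Trim Galore, per the submitters' processing notes. Their versions, the genome build and the strand setting were not given in the sources used here. The deposited signal is, per the file headers, the authors' normalized count per gene and library. The authors also deposited a log2 fold change, a Wald statistic (a score), a p-value and an adjusted p-value for each pair of groups. All values were whole multiples of 1 read within 0.001, and the reads recovered numbered 31860422 to 44988540 per library. Replicates of a group differed by more than counting noise.

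Groups were fitted pairwise with limma 3.58.1 (R 4.3.3) and its trended prior on log2(value + 1). Genes had to reach 10 in at least as many libraries as there are in the smaller group. Fold changes are on this scale, which understates those of low genes. P-values are two-sided and Benjamini-Hochberg adjusted over all genes tested, with a threshold of 0.05. Alternatives were other pseudocounts, no filter, other scalings, edgeR 4.0.16 and DESeq2 1.42.0 on the recovered reads, all 8 libraries in 1 fit, another threshold, embryo sex as a covariate and each library left out. The scripts were tested on simulated data. Tables were read with Python 3.11.15 and pandas 2.3.3.

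Exon lengths, merged over transcripts, and gene spans came from GENCODE M21, and promoters from RefSeq (GRCm38.p6). Of the 34 genes 12 share exon bases with a gene on the opposite strand, and reads of near-identical copies could not be split. The 34 genes and all lists were chosen with earlier results of these data known. Named in full are the 34 genes and, of each other list, up to 4 genes with the largest change among those past the threshold in a comparison, with Rrm2b, E2f1 and Mki67. Intervals come from limma's estimate of the spread between libraries.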

Additional observations from a re-analysis of the deposited data

How the results depend on the processing

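The 5 falls against the Cre control became 8 when all 8 libraries shared a fit, 8 when the threshold was 0.1, 9 in the authors' deposited table and 3 with embryo sex as a covariate. They were 2 to 6 with 1 library left out, with 0 to 1 higher. The 4 falls against the floxed control became 9, 8 and 9 under the first 3 of these and 2 with scaling by library total only, and 0 to 6 with 1 library left out: 3, 1 and 6 without Cre-Idh1 replicate 1, 2 or 3, and 0 without floxed control replicate 1 or 2. Against the Cre control they were 5, 3 and 6 without Cre-Idh1 replicate 1, 2 or 3 and 2 without any of the Cre controls. The 9 falls against both controls were 6 to 9, with 0 to 1 higher.

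Among all genes 2849 calls against the Cre control became 1898 with embryo sex and 1168 to 3854 with 1 library left out. The 2196 against the floxed control became 3573 with all 8 libraries in 1 fit, 3554 at 0.1, 4095 in the authors' table, 1434 with sex and 186 to 3752 with 1 left out. The 2 between the controls became 86 with DESeq2, 1 with all 8 libraries, 36 in the authors' table, 1 with sex and 1 to 102 with 1 left out. The 4845 against both controls ranged from 3073 to 5229. Of the other values for single genes and counts of lists, 640 stayed the same, 80 moved and 42 lost their call, and no gene reversed. For a gene, the same means that direction and side of the threshold were kept. For a count of a list, it means only equal or close to the main count, including counts that were 0 in both. The causes were not tested. No paired analysis was possible because the labels give no replicate numbers, which were assigned in the order of the records. The 34 genes had 55 to 4305 reads per library, so counting error is larger for low ones such as Gins1 and Cdc6 than for the helicase genes.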
